A study of Gallus gallus with 3 samples.

Results

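Splanchnic lateral plate mesoderm is described here in the forelimb field of chicken embryos, as the cells that the authors annotated Splanchnic LPM at the finer level of their cell table. The class held 254 of 3262 cells, with 18 at HH10, 215 at HH14 and 21 at HH18, so most of what follows is about HH14. HH stages (Hamburger-Hamilton) order chick embryos by their external anatomy. All tissue was Wildtype, came from pooled male and female embryos, and was cut from the body beside the somites. HH10 is embryonic day 1.5 in the labels, HH14 day 2.5 and HH18 day 3.5, and each stage was 1 single-cell library, so nothing below carries a measure of the spread between embryos.

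The lateral plate is the mesoderm at the side of the embryo. The coelom splits it into a somatic layer, which lies under the ectoderm and gives rise to body wall and limb mesenchyme, and a splanchnic layer, which lies on the endoderm and gives rise to the smooth muscle and connective tissue of the gut, to the heart and to part of the lining of the body cavity. Hedgehog protein from the endoderm is known to act on the splanchnic layer, where FOXF1 is among its targets, and homeobox factors such as NKX3-2, NKX2-3 and BARX1 mark regions of the future stomach, spleen and intestine.

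The libraries held 1210, 1313 and 739 cells and 11855255, 11267879 and 6557527 UMIs (molecular tags, counted once per captured RNA) at HH10, HH14 and HH18. UMIs were summed over the splanchnic cells of a library, 131201 at HH10, 1855115 at HH14 and 148711 at HH18, and levels are a gene's UMIs per 1000000 of that sum (CPM). The main comparison set them against the sum of the 10 other annotated mesodermal classes of the same library, 892, 589 and 357 cells, called other mesoderm here. Classes were counted as mesodermal by their names, and Amnion, with 124 cells at HH14, was left out. Flank LPM, Limb bud mesenchyme and Gut had 0 cells at HH10, where Undifferentiated LPM 7 had 427 and Primitive MES 301. At HH18 Undifferentiated LPM 1, Undifferentiated LPM 7 and Primitive MES had 0, and Limb bud mesenchyme had 180. The stages were thus set against different mixes of classes. A gene counts as measured where its UMIs, shared in proportion to both totals, would give 10 or more in each sum, and a fold of 2 is used to describe size. Intervals, at 95%, are exact and cover counting error only. The authors drew the classes from these same expression values, so differences between classes describe the annotation, and no test was made.

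At HH14 splanchnic cells had a median of 7183 UMIs and 2.49% mitochondrial UMIs, against 7455 UMIs and 2.26% in other mesoderm. At HH10 and HH18 the median was 6377.5 and 5330 UMIs, against 8934.5 and 8097 in other mesoderm. In the authors' coarser annotation, 195 of the 215 splanchnic cells at HH14 carried the first-level name Gut derivities, as did 10 of 18 at HH10 and 21 of 21 at HH18. A doublet caller marked 0 splanchnic cells and 3 cells in all, too few for it to be relied on, and 1 barcode sequence occurred in 2 libraries.

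The 4 markers given for the class were all higher in it at HH14. TCF21, a factor of visceral mesoderm and mesothelium, was at 205 CPM in splanchnic cells and 33.8 CPM in other mesoderm, 6.07-fold (interval 5.08 to 7.27). NKX3-2, a repressor that marks stomach mesenchyme and also the somitic cells of the future skeleton, was at 139 and 25 CPM, 5.56-fold (4.50 to 6.89). Most of the comparison's NKX3-2 came from 1 class: Somitic MES held 104 of the 137 UMIs and had 145 CPM, beside 139 CPM in splanchnic cells. FOXF1, a forkhead factor of gut mesenchyme, was at 51.7 and 7.30 CPM, 7.09-fold (4.85 to 10.5), and the 24 cells of Undifferentiated LPM 1 had 60.3 CPM. NKX2-3, which marks intestinal and splenic mesenchyme, was at 30.7 and 3.65 CPM, 8.42-fold (4.98 to 14.8), and the class named Gut had 54.6 CPM. Of the 4, TCF21 alone had its highest level in splanchnic cells among the 10 mesodermal classes with 20 or more cells.

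**Figure D1:**
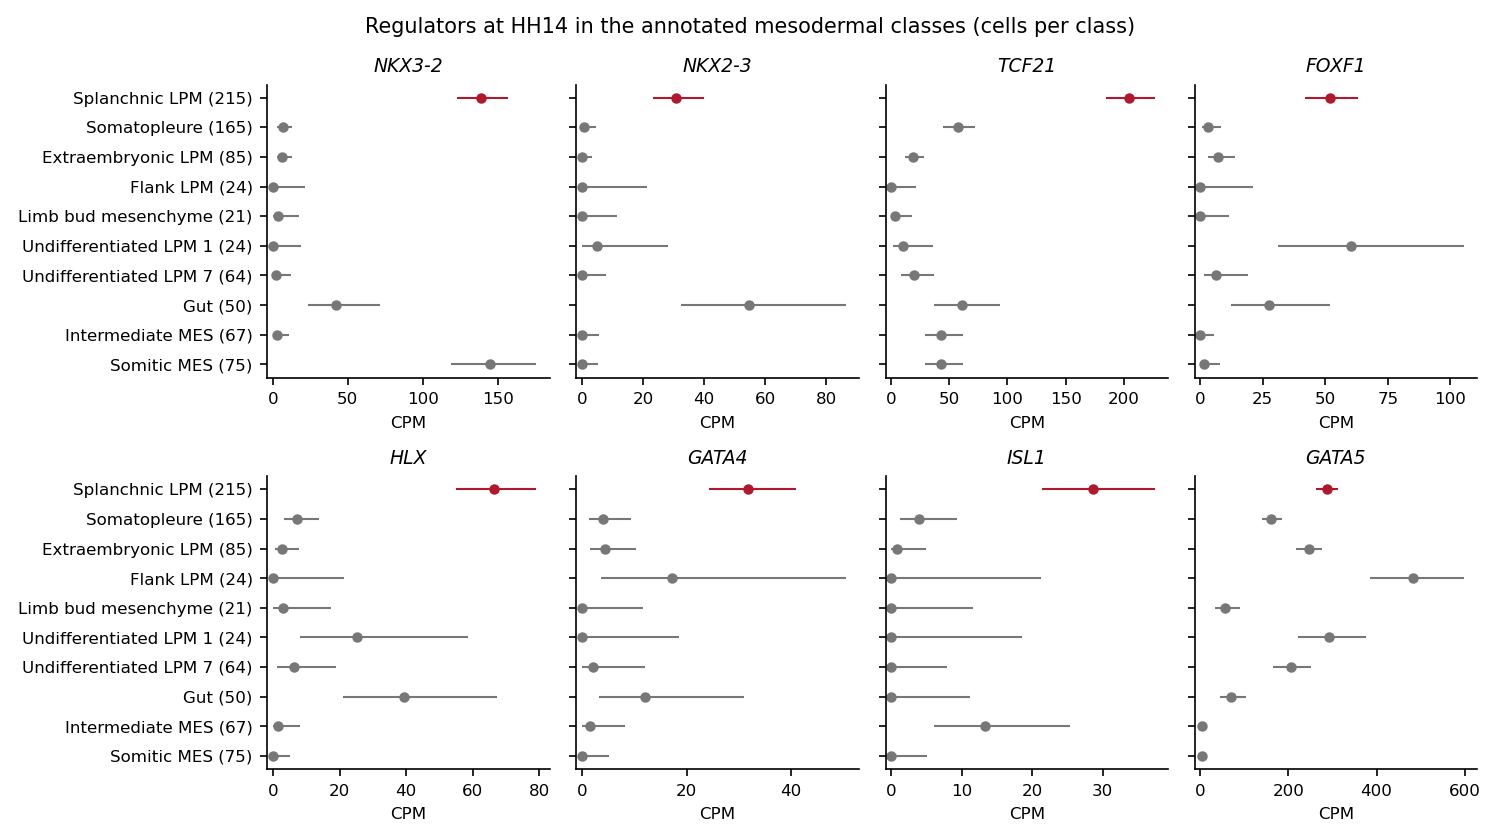
Levels in CPM of 8 regulators in the 10 mesodermal classes with 20 or more cells at HH14, with splanchnic cells in red at the top and the number of cells after each class name. Bars are exact 95% Poisson intervals for counting error. TCF21, HLX, GATA4 and ISL1 were highest in splanchnic cells, NKX3-2 was at 139 CPM there and 145 CPM in Somitic MES, NKX2-3 was highest in the class named Gut, and GATA5 was at 287 CPM in splanchnic cells and 483 CPM in Flank LPM.

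Cell by cell, no marker was detected in all splanchnic cells at this depth. After each cell was thinned to 3000 UMIs, which kept 199 of the 215 cells, 64 had a TCF21 UMI (32.2%, interval 25.7 to 39.1), 37 an NKX3-2 UMI (18.6%, 13.4 to 24.7), 20 a FOXF1 UMI (10.1%, 6.25 to 15.1) and 16 an NKX2-3 UMI (8.04%, 4.67 to 12.7). Without thinning the shares were 50.7%, 27.0%, 27.9% and 19.5%. In ectoderm, which should lack these genes and had a median of 8166.5 UMIs per cell, the thinned counts were 1, 0, 0 and 1 of 151 cells, where 0 allows a share of up to 1.99%. At least 1 of the 4 was found in 107 of 199 splanchnic cells (53.8%, 46.6 to 60.8), against 81 of 527 in other mesoderm (15.4%, 12.4 to 18.7) and 2 of 151 in ectoderm (1.32%, 0.161 to 4.70). Of the 107, 80 cells had 1 marker, 24 had 2, 3 had 3 and none had all 4. The class named Gut had a share of 42.5% (17 of 40 cells, 27.0 to 59.1), and Somatopleure and Extraembryonic LPM had 14.2% and 11.5%.

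Beyond the markers, several gut and heart field regulators had higher summed levels in splanchnic cells at HH14 than in other mesoderm. The background was set by all 8251 measured genes, of which 192 passed 2-fold on the higher side (2.33%) and 312 on the lower (3.78%), around a median log2 fold of -0.06. Of 15 measured genes on a list of splanchnic and gut mesenchyme factors, 11 were at least 2-fold higher and 1 lower around a list median log2 fold of 2.25. The list was drawn up with the class known and holds the 4 markers, so its count is no independent support. HLX, a homeobox factor needed for gut and liver growth in the mouse, was at 66.3 CPM in splanchnic cells and 6.75 CPM in other mesoderm, 9.82-fold (6.75 to 14.6). ISL1, a LIM homeobox factor of heart progenitors, was at 28.6 and 2.74 CPM, 10.4-fold (5.80 to 19.9). GATA4, a zinc finger factor of heart and gut mesoderm, was at 31.8 and 3.47 CPM, 9.17-fold (5.39 to 16.3). Their summed levels were highest in splanchnic cells among the 10 classes, while a UMI of HLX was found in 41, of GATA4 in 15 and of ISL1 in 13 of the 199 thinned cells.

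The related factors GATA5 and GATA6 were closer between the groups. GATA5 was at 287 CPM in splanchnic cells and 144 CPM in other mesoderm, 2.0-fold (1.79 to 2.24), and GATA6 at 150 and 74.5 CPM, 2.02-fold (1.73 to 2.36). Flank LPM, a class of 24 cells, was above splanchnic cells for both, with 483 CPM of GATA5 and 518 CPM of GATA6. HAND1 and HAND2, helix-loop-helix factors of heart and lateral plate, differed by less than 2-fold, with 325 against 237 CPM and 364 against 318 CPM.

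BARX1, a homeobox factor of stomach mesenchyme, rested on few cells. Its 29 UMIs lay in 9 splanchnic cells, 10 of them in 1 cell, and gave 15.6 CPM against 3.28 CPM in other mesoderm. The list member at least 2-fold lower was NKX6-1, with 2 UMIs in splanchnic cells and 93 in other mesoderm, of which 92 lay in Intermediate MES; without that class its log2 fold was 2.37. HOXA5, a colinear HOX gene of gut and lung mesenchyme, was at 64.1 and 93.8 CPM. Another 9 members present in the table were not measured, among them FOXF2 with 12 UMIs in each sum and WT1, a mesothelial factor, with 9 and 30. NKX2-5, a heart factor, and TLX1, a spleen factor, were at 0 in both sums, TBX20 and TBX18 at 0 in splanchnic cells, and NKX2-6, MEF2C and SIX2 at 1, 1 and 2 UMIs in splanchnic cells.

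Genes with other roles stood as high. LINGO1, a membrane protein with leucine-rich repeats studied in neurons, was at 59.3 CPM in splanchnic cells and 7.66 CPM in other mesoderm, 7.74-fold (5.38 to 11.3). FAT4, a giant cadherin of planar polarity, was at 90.6 and 15 CPM, 6.05-fold (4.62 to 7.98). SST, which encodes the peptide hormone somatostatin, was at 52.8 and 10.2 CPM, 5.17-fold (3.69 to 7.31), with 18 of its 98 UMIs in 1 cell. The kinase STK10 was 5.11-fold higher (3.36 to 7.88), the cadherin CDH6 4.53-fold (3.24 to 6.38), the secreted protein CYTL1 4.29-fold (3.50 to 5.28) and the steroid reductase AKR1D1 3.90-fold (3.22 to 4.73). ANXA1, a membrane-binding protein, was 3.62-fold higher (3.12 to 4.19) and PAWR, a regulator of apoptosis, 3.21-fold (2.71 to 3.80). CFC1, the chick homologue of the Nodal co-receptor cryptic, was at 116 and 33.4 CPM, 3.47-fold (2.84 to 4.25). Several of these genes were also high in single other classes. The class named Gut, 50 of the 589 other cells, held 91 of the 183 other-mesoderm UMIs of CFC1 and 99 of 163 of CYTL1. It also held 264 of 334 of ANXA1 and 17 of 42 of LINGO1. CFC1 was at least 2-fold lower in splanchnic cells than in Gut. The 24 cells of Undifferentiated LPM 1 held 18 of the 56 SST UMIs. Somitic MES held 18 of the 37 other-mesoderm UMIs of STK10 and 33 of the 82 of FAT4.

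TTR, which encodes the thyroid hormone carrier transthyretin, was at 243 CPM in splanchnic cells and 59.7 CPM in other mesoderm, 4.07-fold (3.53 to 4.71). It was at 5518 CPM in the 31 endoderm cells of the library, at 655 CPM in the class named Gut and at 3.61 CPM in ectoderm, and 91 splanchnic cells held its 451 UMIs. Of 7 measured genes of the endoderm list, TTR and the keratin KRT7 were at least 2-fold higher than in other mesoderm, 1 was lower and 4 were neither. APOA1, an apolipoprotein, was among the 4, with 227 UMIs in 91 splanchnic cells, 122 CPM, against 70.4 CPM in other mesoderm and 608 CPM in endoderm. It was 2.03-fold higher than in Somatopleure (1.56 to 2.67) and 2.86-fold higher than in Extraembryonic LPM (2.09 to 3.99). CLDN3, an epithelial tight junction gene, had 26 UMIs in splanchnic cells and 6 in Extraembryonic LPM, 2.62-fold higher by sums (1.06 to 7.79), but the log2 fold was -0.11 by means over cells. Endoderm had 1182 CPM of CLDN3. The factors FOXA1, FOXA2 and SOX17 and the ligand SHH had 1, 2, 0 and 3 UMIs in splanchnic cells, and FOXA1, FOXA2 and SHH were at 125, 111 and 174 CPM in endoderm. EPCAM, an epithelial adhesion gene, was at 19.4 CPM in splanchnic cells, 815 CPM in endoderm and 728 CPM in ectoderm. The part of endodermal RNA in the TTR and APOA1 levels was not tested.

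**Figure D2:**
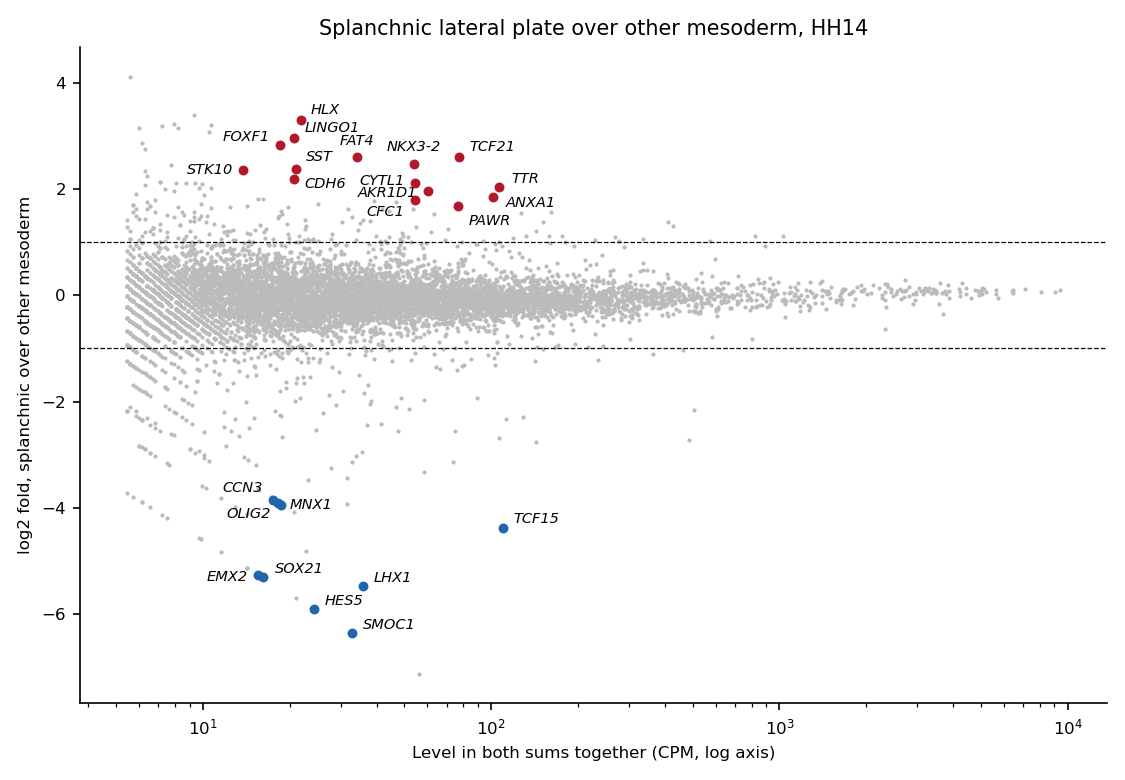
Each point is 1 of 8251 measured genes at HH14, with its level in both sums together in CPM on a log axis and its log2 fold of splanchnic cells over other mesoderm. The named genes are the 15 highest in red and 9 of the 10 lowest in blue by their intervals, among named genes with at least 100 UMIs, and dashed lines mark 2-fold. HLX stood at 3.30 on the log2 scale, TCF21 at 2.60 and TCF15 at -4.37.

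The genes ranked lowest in splanchnic cells had most of their UMIs in other single classes, except SMOC1, whose largest holder, Somitic MES, had 30.3%. TCF15, a factor of the epithelial somite, was at 7.01 CPM in splanchnic cells and 145 CPM in other mesoderm, 20.7-fold lower (12.0 to 39.0), and 85.6% of the other-mesoderm UMIs lay in Somitic MES. SMOC1, a secreted matrix protein, had 1 UMI against 241, 81.6-fold lower (14.5 to 3236). LHX1, a kidney field factor that neurons also express, had 2 against 261 UMIs, with 89.3% in Intermediate MES.

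Intermediate MES also held most of the UMIs of several neural genes and of EMX2, which is on a list of intermediate mesoderm genes. The other-mesoderm sum had 137 UMIs of OLIG2, 133 of MNX1, 177 of HES5, 117 of SOX21 and 113 of EMX2, and splanchnic cells had 0, 0, 1, 1 and 1. The share held by Intermediate MES was 94.9% for OLIG2, 79.7% for MNX1, 97.2% for HES5, 93.2% for SOX21 and 92.9% for EMX2. OLIG2 was at least 15.5-fold lower in splanchnic cells and MNX1 at least 15-fold, with 0 set to 3 UMIs. CCN3, a matricellular protein, had 0 against 128 UMIs, at least 14.4-fold lower, and 93.8% lay in the 14 cells of Primitive MES. With Intermediate MES left out of the comparison, 200 genes were at least 2-fold higher and 255 at least 2-fold lower.

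Somatic layer and limb field factors were lower as a group. Of 18 measured members, 0 were at least 2-fold higher and 14 at least 2-fold lower, for a median log2 fold of -2.74 beside -0.06 over all measured genes. The list was drawn up with the class known. Other mesoderm had the larger sum, so the rule for measured genes favours lower genes, and this count is no independent support. Of the lower members, EMX2 had 92.9% of its other-mesoderm UMIs in Intermediate MES and EBF3 71.4% in Somitic MES. PRRX1, a homeobox factor of limb and body wall mesenchyme, was at 93.8 CPM in splanchnic cells and 618 CPM in other mesoderm, 6.59-fold lower (5.66 to 7.72), and it was detected in 80 splanchnic cells. FGF10, the growth factor that starts limb outgrowth, had 2 UMIs against 102, 17.3-fold lower (4.66 to 144). TBX5, the forelimb T-box factor, was at 4.85 and 23.4 CPM, 4.82-fold lower (2.46 to 10.8), TWIST1 at 27.0 and 182 CPM and MSX2 at 3.77 and 41.1 CPM.

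Signalling genes lay on both sides at HH14. On the Hedgehog list, 4 of 14 measured genes were at least 2-fold higher and 2 lower around a list median log2 fold of -0.26. The 4 were the FOXF1 described above, HHIP, a decoy receptor induced by the pathway, the transcription factor GLI1 and the receptor PTCH1. HHIP was at 19.9 CPM in splanchnic cells and 3.65 CPM in other mesoderm, 5.46-fold (3.09 to 9.94), GLI1 at 11.3 and 5.11 CPM, 2.22-fold (1.20 to 4.04), and PTCH1 at 28.6 and 13.7 CPM, 2.09-fold (1.44 to 3.01). The 2 lower were the ligand SHH, with 3 against 54 UMIs, 85.2% of the 54 in Intermediate MES, and DISP1, a transporter that releases the ligand.

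On the WNT list 4 of 28 measured genes were at least 2-fold higher and 8 lower. The 4 were RSPO1, which strengthens WNT signals, at 17.2 CPM in splanchnic cells and 2.37 CPM in other mesoderm (7.27-fold, 3.71 to 15.1), and the secreted modulators SFRP5 (3.16-fold, 2.25 to 4.45), DKK3 (2.93-fold, 2.57 to 3.34) and SFRP1 (2.17-fold, 1.70 to 2.75). Among the 8 lower, the ligand WNT4 had 5 UMIs against 164, 92.1% of them in Intermediate MES, and the secreted inhibitor WIF1 had 0 against 45 UMIs, at least 5.08-fold lower. The Notch list had 0 of 14 higher and 5 lower, HES5 among them. Of the 5, HES5 had 97.2%, JAG2 53.2% and LFNG 38.5% of their other-mesoderm UMIs in Intermediate MES, and DLL1 81.7% in Primitive MES. Against Somatopleure 0 of 10 measured Notch genes were higher and 0 lower. Against Extraembryonic LPM 2 of 10 were higher and 0 lower, and against Gut 0 of 4 were higher and 3 lower. The BMP and TGF-beta list was close to the background, with 2 of 26 higher, 4 lower and a median log2 fold of -0.04. The FGF list had 2 of 16 higher and 6 lower, and the left-right list, which holds NKX3-2 and CFC1, 4 of 12 higher and 4 lower. In the retinoic acid list 1 of 10 was higher and 1 lower. The higher was RDH10, which makes retinaldehyde, at 319 and 107 CPM (2.96-fold, 2.64 to 3.33), and the lower was CRABP-I, a retinoic acid binding protein, at 10.2 and 60.2 CPM.

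The counts of HOX genes past 2-fold differed by their place in the clusters. Of 11 measured middle and 5' HOX genes, 0 were at least 2-fold higher and 8 lower, for a median log2 fold of -1.47. HOXA9 had 5 UMIs in splanchnic cells against 226 in other mesoderm, HOXB9 was at 5.39 against 43.6 CPM and HOXA7 at 32.9 against 162 CPM. HOXA9 and HOXB9 were measured largely through their UMIs in other mesoderm. The rule for measured genes favours lower genes in such counts. Of 13 measured 3' HOX genes, 1 was higher and 3 were lower, for a median log2 fold of -0.27. The higher was HOXB5, at 370 and 181 CPM, 2.04-fold (1.85 to 2.25).

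Epithelial and contractile genes showed a mixed picture. On the coelomic epithelium list 5 of 17 measured genes were at least 2-fold higher and 1 lower around a list median log2 fold of 0.71. Besides GATA4 and TCF21 they were PODXL, an apical sialoprotein, at 762 and 294 CPM (2.59-fold, 2.41 to 2.79), the guidance protein SEMA3D (2.61-fold, 2.05 to 3.33) and the keratin KRT18 (2.18-fold, 2.08 to 2.28). On the contractile list 3 of 20 were higher and 1 lower, with a median of 0.45, and TNNT2, a cardiac troponin, had 32 UMIs in 19 splanchnic cells against 14 UMIs in other mesoderm (6.75-fold, 3.50 to 13.7). The keratin KRT7 was at 1371 CPM in splanchnic cells and 634 CPM in other mesoderm, with 1176 CPM in ectoderm. KRT14, a keratin of surface ectoderm, was at 22.1 and 5.47 CPM, with 147 CPM in ectoderm, where TFAP2A, TP63 and WNT6 were at 226, 77.7 and 207 CPM against 0, 7 and 3 UMIs in splanchnic cells. Against all other annotated cells, ectoderm included, the log2 fold of KRT14 was -0.50. The part of ectodermal RNA in the KRT14 level was not tested.

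Cell cycle genes differed little. Of 29 measured S phase genes, 0 were at least 2-fold apart in either direction, and of 29 G2 and M phase genes 1 was lower. Matrix genes, with 2 of 40 higher and 6 lower, and guidance genes, with 6 of 35 higher and 5 lower, lay on both sides. By the authors' phase calls 107 of 215 splanchnic cells were in G1 (49.8%), 24 in S (11.2%) and 84 in G2/M (39.1%), against 47.9%, 10.7% and 41.4% in other mesoderm. Of 8 measured genes on the endothelium and blood list, 0 were at least 2-fold higher, 4 were lower and 4 were neither. The whole list, haemoglobins included, summed to 443 CPM in splanchnic cells and 839 CPM in other mesoderm. As examples, the endothelial genes CDH5 and KDR had 0 and 3 UMIs in splanchnic cells, against 957 and 207 CPM in cells annotated as blood vessels. The embryonic haemoglobin HBE was at 86.2 CPM in splanchnic cells, 173 CPM in other mesoderm and 82.5 CPM in ectoderm.

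**Figure D3:**
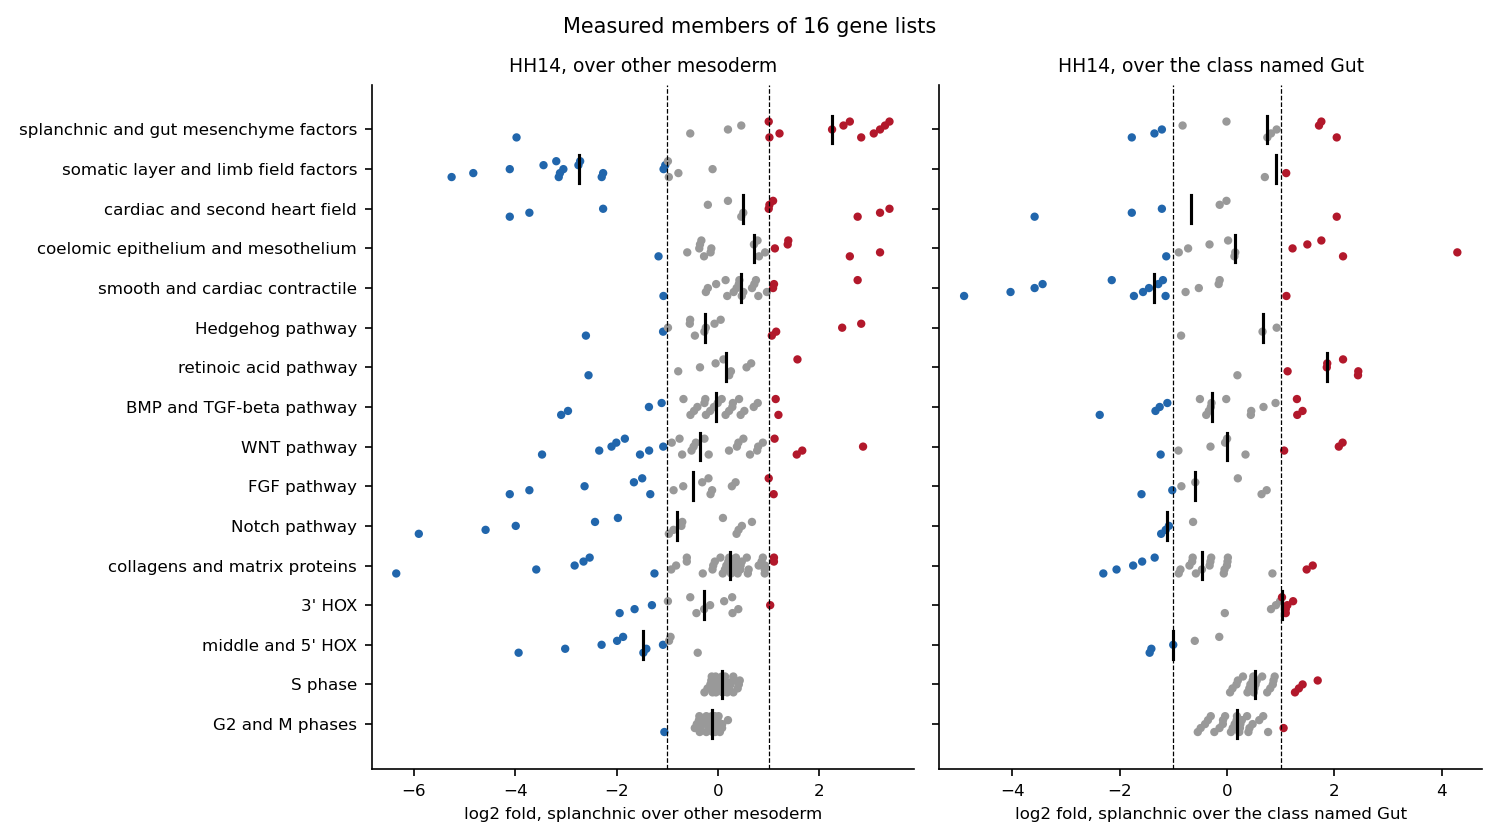
Log2 folds at HH14 of the measured members of 16 gene lists, on the left for splanchnic cells over other mesoderm and on the right for splanchnic cells over the class named Gut. Each point is a gene, red at 2-fold or more higher, blue at 2-fold or more lower and grey otherwise, and black bars are list medians. Splanchnic factors had a median of 2.25 on the left and 0.75 on the right, and the retinoic acid list 0.16 and 1.87.

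Somatopleure, 165 cells named for the other layer, was the next comparison, with 773 of 7297 measured genes past 2-fold on the splanchnic side (10.6%) and 133 on the Somatopleure side (1.82%). The median log2 fold was 0.12, and with it set to 0 the counts were 598 and 189. Somatopleure cells had a median of 5335 UMIs and 2.08% mitochondrial UMIs, against 7183 UMIs and 2.49% in splanchnic cells, and with every cell thinned to 3000 UMIs the counts were 384 and 119. NKX2-3 had 57 UMIs in splanchnic cells and 1 in Somatopleure, 38.2-fold (6.59 to 1536). NKX3-2 was at 139 and 6.43 CPM, 21.6-fold (10.8 to 50.6), FOXF1 16.1-fold higher (6.09 to 60.3), HLX 9.17-fold (4.67 to 20.5) and GATA6 3.60-fold (2.67 to 4.94). TCF21 was nearer, at 205 and 57.1 CPM, 3.59-fold (2.78 to 4.69), and BARX1 was at 15.6 and 12.9 CPM with an interval that includes 1 (1.22-fold, 0.639 to 2.40). Of 14 measured splanchnic factors 10 were at least 2-fold higher and 0 lower, or 9 and 0 with the median set to 0.

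Matrix, guidance and BMP genes that passed 2-fold between the layers were mostly higher in splanchnic cells, beside the 10.6% of all measured genes on that side, and about as many did not pass. Of 34 measured collagens and matrix proteins, 15 were at least 2-fold higher in splanchnic cells, 1 was lower and 18 were neither around a list median log2 fold of 0.92, or 13 and 1 with the median of all genes set to 0. The basement membrane collagen COL4A1 was at 73.3 CPM in splanchnic cells and 9.64 CPM in Somatopleure, 7.60-fold (4.21 to 15.1), and the fibrillar COL3A1 at 169 and 28.1 CPM, 6.0-fold (4.22 to 8.77). Of 30 guidance and chemokine genes 17 were higher, 0 lower and 13 neither, or 16 higher and 0 lower after rescaling. They include CXCL12, a chemokine, at 48.0 and 4.02 CPM (11.9-fold, 4.93 to 37.7), SEMA3D (5.49-fold, 3.26 to 9.89), PDGFRA (3.39-fold, 2.36 to 4.99) and SLIT3 (2.88-fold, 1.97 to 4.32). Of 21 BMP and TGF-beta genes 10 were higher, 0 lower and 11 neither, or 9 higher and 1 lower after rescaling, and the ligand BMP2 was at 25.9 and 7.23 CPM (3.58-fold, 1.74 to 8.29). Its relative BMP4 was at 49.1 and 98.0 CPM.

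The contractile gene ACTA2, smooth muscle actin, was at 74.9 CPM in splanchnic cells and 8.84 CPM in Somatopleure, 8.48-fold (4.59 to 17.4), and the atrial and embryonic myosin light chain MYL4 was 8.94-fold higher (5.29 to 16.3). Higher in Somatopleure were IRX3, a homeobox factor of proximal limb and body wall, at 10.8 CPM in splanchnic cells and 144 CPM in Somatopleure (13.3-fold, 8.39 to 22.4), PRRX1 at 93.8 and 733 CPM (7.81-fold, 6.64 to 9.24), TWIST1 (6.86-fold, 5.03 to 9.51) and DACT2, a WNT and TGF-beta antagonist (4.42-fold, 2.89 to 6.93). Among genes of other roles COTL1, an actin-binding protein, was 3.24-fold higher in Somatopleure, AP5M1, a vesicle adaptor, 3.03-fold, HOXA7 3.01-fold and NPM3, a histone chaperone, 2.49-fold.

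Extraembryonic LPM had 85 cells, and 242 of 7285 measured genes passed 2-fold on the splanchnic side (3.32%) and 298 on the extraembryonic side (4.09%). This split depended on scaling, since the median log2 fold was -0.16 and with it set to 0 the counts were 319 and 180. Extraembryonic cells had a median of 12560 UMIs, and haemoglobins were higher there, with HBA1 at 34.0 CPM in splanchnic cells and 189 CPM in Extraembryonic LPM and HBE at 86.2 and 436 CPM. Of 14 measured splanchnic factors 9 were at least 2-fold higher and 0 lower under both scalings. HLX had 123 UMIs in splanchnic cells and 3 in Extraembryonic LPM, 24.8-fold (8.29 to 122), NKX3-2 was 22.3-fold higher (10.7 to 56.0) and TCF21 10.95-fold (7.06 to 17.9). NKX2-3 had 57 UMIs against 0, at least 11.5-fold higher.

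GATA5, GATA6, HAND1 and HAND2 were within 2-fold between these classes. GATA6 was at 150 CPM in splanchnic cells and 145 CPM in Extraembryonic LPM (1.04-fold, 0.851 to 1.26), and HAND1 at 325 and 307 CPM (1.06-fold, 0.925 to 1.21). Among the 8 genes ranked highest by their intervals were also ANXA1 (27.5-fold, 14.3 to 60.6), LINGO1, with 110 UMIs against 2 (33.3-fold, 9.0 to 278), CYTL1 (17.9-fold, 8.95 to 42.0), FAT4 (12.7-fold, 6.30 to 29.9) and TTR (10.1-fold, 6.85 to 15.5). Lower in splanchnic cells were SP5, a WNT target, at 7.55 and 114 CPM (15.1-fold, 8.68 to 28.4), PRRX1 at 93.8 and 1062 CPM (11.3-fold, 9.65 to 13.3), IRX3 (11.2-fold, 6.94 to 18.8), TWIST1 (7.47-fold), DACT2 (5.62-fold), HOXD3 (4.39-fold), the adhesion protein ALCAM (3.11-fold) and the Golgi protein FJX1 (2.68-fold).

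A comparison with the 50 cells of the class named Gut at HH14 was added after the class levels were seen. Those cells had a median of 5109.5 UMIs, and FOXA1, FOXA2, SHH and SOX17 were at 0 UMIs in them, each of which allows up to 9.10 CPM. Of 4099 measured genes 217 passed 2-fold on the splanchnic side (5.29%) and 163 on the Gut side (3.98%), around a median log2 fold of 0.07. The sums were 1855115 UMIs in splanchnic cells and 329769 in Gut. The rule for measured genes thus favours genes higher in splanchnic cells in all counts against Gut. The balance depended on the setting. With that median set to 0 the counts were 182 and 188, and with a minimum of 30 expected UMIs 49 and 58. Among 11 measured splanchnic factors 3 were higher and 3 lower. The 3 higher were GATA5, at 287 CPM in splanchnic cells and 69.7 CPM in Gut (4.12-fold, 2.72 to 6.56), TCF21 (3.38-fold, 2.16 to 5.59) and NKX3-2 (3.28-fold, 1.92 to 6.08). Among the 3 lower were HAND1, at 325 and 1113 CPM (3.42-fold, 3.0 to 3.90), and HAND2 (2.32-fold, 2.01 to 2.67). The intervals of FOXF1, HLX, NKX2-3 and GATA6 included 1, with 1.90-fold for FOXF1 (0.958 to 4.27) and 1.68-fold for HLX (0.948 to 3.25).

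Most measured contractile genes were lower in splanchnic cells than in Gut, and most measured retinoic acid genes higher. Of 16 measured contractile genes 1 was at least 2-fold higher in splanchnic cells and 11 lower, for a median log2 fold of -1.37. ACTA2 was at 74.9 CPM in splanchnic cells and 1228 CPM in Gut, 16.4-fold lower (13.5 to 20), TAGLN, a smooth muscle cytoskeletal protein, at 43.7 and 473 CPM, 10.8-fold lower (8.23 to 14.4), and LMOD1, a smooth muscle leiomodin, had 13 UMIs against 69, 29.9-fold lower (16.4 to 58.9). Of 20 retinoic acid genes present 7 were measured, of which 6 were higher and 0 lower, with a median of 1.87. The rule for measured genes favours higher genes in this count, so it is no independent support. The binding protein CRABP2 was at 379 CPM in splanchnic cells and 69.7 CPM in Gut (5.44-fold, 3.60 to 8.64), the retinol receptor STRA6 5.42-fold higher (2.06 to 20.2) and ALDH1A2, the enzyme that makes retinoic acid, at 285 and 63.7 CPM (4.47-fold, 2.89 to 7.28). DHRS3, RDH10 and the receptor RARB were 3.64-fold, 3.62-fold and 2.18-fold higher.

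The nuclear receptors NR2F1 and NR2F2 were at 281 and 454 CPM in splanchnic cells, against 33.4 and 78.8 CPM in Gut, 8.42-fold (4.67 to 17.0) and 5.76-fold (3.90 to 8.86). OSR1, a zinc finger factor of intermediate and lateral mesoderm, had 110 UMIs against 1 (19.6-fold, 3.44 to 779), and MYCN, a growth regulator, was 8.28-fold higher (3.50 to 25.8). Of 9 measured 3' HOX genes 5 were higher and 0 lower, while among 5 middle and 5' HOX genes the count was 0 and 3. All 7 measured genes of the amnion and extraembryonic list were lower in splanchnic cells, among them ANXA1, at 220 and 801 CPM (3.63-fold, 3.1 to 4.25), and KRT7, at 1371 and 3026 CPM.

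Over the 10 mesodermal classes with 20 or more cells at HH14, the genes whose log2(CPM + 10) ran most like that of NKX3-2 were STK10 (Pearson r = 0.956), FAT4 (0.914), TENM4, a teneurin (0.862), FGFRL1, an FGF receptor without a kinase domain (0.832), and RDH10 (0.823), out of 5548 genes. Both splanchnic cells and Somitic MES are high for NKX3-2, so both weigh in the likeness. Without Somitic MES, over 9 classes, STK10 and FAT4 remained the first pair at 0.947 and 0.927, followed by BTG2, BCL2 and CYTL1. These are correlations over class sums of 1 library that share its sequencing and differ in cell number, given as a description.

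The pairs of genes and the split of splanchnic cells at HH14 given here were chosen after their values were seen. Of 199 thinned cells 37 had NKX3-2 and 64 had TCF21, and 8 had both, where the product of the shares gives 11.9. NKX3-2 and HLX were found together in 12 cells, where the product gives 7.62. TCF21 shared 24 cells with HAND2 (product 34.7) and 8 with HLX (13.2), so a count under the product was not particular to its pair with NKX3-2. All 5 cells with BARX1 also had TCF21. In the 37 cells with NKX3-2, TCF21 was at 90.1 CPM against 216 CPM in the 162 cells without, 2.40-fold lower (1.25 to 5.15). That interval covers the counting of UMIs and leaves out the spread between cells. By cells, 21.6% of those with NKX3-2 and 34.6% of those without had a TCF21 UMI, and this difference was not tested. TCF21 was not alone, since 48 of 1739 measured genes were at least 2-fold lower in this split and 6 higher. The cells with NKX3-2 had 111000 UMIs against 486000 in those without, so the rule for measured genes favours lower genes in this count. At most 30 of the 258 NKX3-2 UMIs and 38 of the 380 TCF21 UMIs came from 1 cell. Counts of this size are a description of 1 library.

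At HH10 the class had 18 cells, and of the 4 markers none was measured against other mesoderm, so their values rest on few UMIs. TCF21 had 11 UMIs in splanchnic cells, 83.8 CPM, against 8.89 CPM in other mesoderm (9.43-fold, 4.54 to 17.7), NKX2-3 had 2 UMIs (15.2 against 1.78 CPM), FOXF1 4 UMIs (30.5 against 43.5 CPM), and NKX3-2 0 UMIs, which allows up to 22.9 CPM. Of 24 splanchnic and gut mesenchyme factors present, 5 were measured at HH10. Among the unmeasured ones, GATA6 was at 198 and 37.7 CPM (5.26-fold, 3.39 to 7.84) and HLX at 99.1 and 16.5 CPM (5.99-fold, 3.12 to 10.5). GATA6 and HLX are examples and do not stand for the other unmeasured members. The interval of FOXF1 included 1 (1.43-fold lower, 0.553 to 5.26). At least 1 of the 4 markers was found in 6 of 16 thinned splanchnic cells (37.5%, 15.2 to 64.6), against 14.4% in other mesoderm and 1 of 76 ectoderm cells.

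Of 2082 measured genes at HH10, 34 passed 2-fold on the splanchnic side (1.63%) and 113 on that of other mesoderm (5.43%), around a median log2 fold of -0.07. Of 5 measured splanchnic factors, 3 were at least 2-fold higher, among them HAND1 (2.12-fold, 1.62 to 2.72) and GATA5 (2.05-fold, 1.41 to 2.88), and 1, HOXA5, was lower. KRT7 was at 2637 CPM in splanchnic cells and 500 CPM in other mesoderm, 5.28-fold (4.72 to 5.89), and the contractile genes TPM1, a tropomyosin, and MYL9, a myosin light chain, were 2.92-fold and 2.83-fold higher. All 4 measured middle and 5' HOX genes were lower, with 2 UMIs of HOXA7 against 5341 (36.7-fold, 10.1 to 303) and HOXB8 at 122 and 715 CPM (5.86-fold, 3.61 to 10.3). All 5 measured WNT genes were lower too, among them the ligand WNT5A at 45.7 and 195 CPM (4.27-fold, 1.96 to 11.7). Of the others, RSPO3 had 2 UMIs against 978 and the receptor FZD10 had 2 against 1035. RSPO3, FZD10 and HOXA7 were measured through their UMIs in other mesoderm. The rule for measured genes thus favours lower genes in these counts and in the 34 and 113 above.

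At HH18 the class had 21 cells, and again none of the FOXF1, NKX2-3 and NKX3-2 markers, nor TCF21, reached the count to be measured. FOXF1 had 9 UMIs in splanchnic cells and 3 in all of other mesoderm, 60.5 and 0.781 CPM (77.5-fold, 19.3 to 445). NKX2-3 was at 101 and 2.60 CPM (38.7-fold, 16.3 to 96.4), TCF21 at 195 and 9.89 CPM (19.7-fold, 11.7 to 32.8) and NKX3-2 at 74.0 and 7.55 CPM (9.80-fold, 4.42 to 20.2). All 4 were higher in splanchnic cells, and 13 of 18 thinned cells had at least 1 of them (72.2%, 46.5 to 90.3), against 6.21% in other mesoderm and 0 of 123 ectoderm cells.

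Of 2429 measured genes at HH18, 49 passed 2-fold on the splanchnic side (2.02%) and 176 on that of other mesoderm (7.25%), around a median log2 fold of -0.11. All 10 measured somatic layer and limb field factors were lower, also with that median set to 0. They were measured largely through other mesoderm, where 180 of 357 cells were Limb bud mesenchyme. The rule for measured genes favours lower genes here, so this count is no independent support. PRRX1 had 5 UMIs in splanchnic cells against 6533, 33.6 and 1701 CPM (50.6-fold, 21.7 to 156), TWIST1 2 UMIs against 1898, and IRX3 0 against 741, at least 9.56-fold lower. HAND1 was at 1157 CPM in splanchnic cells and 227 CPM in other mesoderm, 5.10-fold (4.31 to 6.01), RDH10 at 625 and 51.5 CPM, 12.1-fold (9.38 to 15.6), and the fibrillar collagen COL3A1 and the proteoglycan DCN were 6.44-fold (4.88 to 8.39) and 4.0-fold (3.32 to 4.79) higher. Of 7 measured middle and 5' HOX genes 0 were at least 2-fold higher and 0 lower, for a median log2 fold of 0.35, unlike the counts at HH10 and HH14. Both the measured genes and the classes in other mesoderm differed between stages, so these counts do not show a change within splanchnic cells. Of 26 measured G2 and M phase genes 0 were higher and 7 lower. By the phase calls 12 of 21 splanchnic cells were in G1 (57.1%, 34.0 to 78.2), an interval that includes the 40.1% of other mesoderm. GATA6 was lower in splanchnic cells, at 33.6 and 87.2 CPM, with 5 UMIs.

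Within the splanchnic class, stages were compared as libraries, so a change in the mix of cells or in the tissue cut and a change of level within cells cannot be told apart. Between HH14 and HH10, 67 of 2034 measured genes passed 2-fold on the HH14 side (3.29%) and 19 on the HH10 side (0.934%), around a median log2 fold of 0.03. The sums were 1855115 UMIs at HH14 and 131201 at HH10, so the rule for measured genes favours genes higher at HH14 in these counts. With a minimum of 30 expected UMIs they were 8 and 2. NKX3-2 had 258 UMIs at HH14 and 0 at HH10, at least 6.08-fold higher, and TCF21 was at 205 and 83.8 CPM (2.44-fold, 1.35 to 4.94). Of 7 measured splanchnic factors these were the 2 higher, and HAND2, at 364 CPM at HH14 and 747 CPM at HH10, was the 1 lower. GATA5 was at 287 and 259 CPM, with an interval that includes 1.

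Higher at HH14 than at HH10 were also PDZRN4, a ubiquitin ligase (5.42-fold, 1.83 to 26.5), the immediate early gene JUN (5.34-fold, 2.97 to 10.7), the heat shock gene HSPB1 (4.06-fold, 1.72 to 12.6), RDH10 (3.22-fold, 1.87 to 6.07) and ANXA1 (3.21-fold, 1.68 to 7.08). Lower at HH14 were HAPLN1, a hyaluronan linker (3.31-fold, 2.15 to 4.96), CFC1 at 116 CPM at HH14 and 312 CPM at HH10 (2.70-fold, 1.88 to 3.78), PPIC, a folding enzyme (2.62-fold), NR6A1, a nuclear receptor of early embryos (2.60-fold), PTN, a growth factor (2.43-fold), CDK6, a cell cycle kinase (2.39-fold), and PRRX1 at 93.8 and 236 CPM (2.52-fold, 1.66 to 3.71).

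Between HH18 and HH14, 47 of 2281 measured genes passed 2-fold on the HH18 side (2.06%) and 75 on the HH14 side (3.29%), around a median log2 fold of -0.04. The rule again favours genes higher at HH14, where the sum was 1855115 UMIs against 148711 at HH18. With a minimum of 30 expected UMIs the counts were 8 and 9. Of 8 measured splanchnic factors 2 were higher, HAND1 at 1157 and 325 CPM (3.56-fold, 2.99 to 4.22) and HOXA5 (2.20-fold, 1.31 to 3.52), and 2 were lower, GATA5 at 60.5 and 287 CPM (4.75-fold, 2.48 to 10.4) and GATA6 (4.47-fold, 1.89 to 13.9). TCF21 had an interval that includes 1, at 195 and 205 CPM, and NKX3-2 was at 74.0 and 139 CPM. NKX2-3, which was not measured, had 15 UMIs at HH18 and 57 at HH14, 101 and 30.7 CPM (3.28-fold, 1.73 to 5.88).

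Most measured matrix and contractile genes stayed within 2-fold between HH18 and HH14. Among 20 measured matrix genes 5 passed 2-fold on the HH18 side, 0 on the HH14 side and 15 on neither, and the 5 include COL1A1 at 477 CPM at HH18 and 143 CPM at HH14 (3.34-fold, 2.53 to 4.36), LUM at 605 and 183 CPM (3.30-fold, 2.59 to 4.18) and COL3A1 (2.79-fold, 2.12 to 3.63). Of 13 measured contractile genes 3 were higher, 1 was lower and 9 were neither, around a list median log2 fold of 0.26. The 3 higher were ACTA2, at 323 and 74.9 CPM (4.31-fold, 3.04 to 6.02), TAGLN2 and MYL4, and the lower was CSRP1, a LIM protein of smooth muscle, with 6 UMIs at HH18 and 259 at HH14 (3.46-fold, 1.57 to 9.52). CYTL1 was at 625 and 128 CPM (4.90-fold, 3.81 to 6.25), ZFAND5, a zinc finger protein, 4.26-fold higher (3.1 to 5.78), S100A11, a calcium-binding protein, 4.07-fold (3.25 to 5.07) and PCDHGC3, a protocadherin, 4.06-fold (2.80 to 5.79). Both measured middle HOX genes, HOXB8 and HOXB6, were higher, 2.52-fold and 2.43-fold, and HOXB5 was lower at HH18, at 87.4 and 370 CPM (4.24-fold, 2.46 to 8.0). Also lower at HH18 were NPR3, a natriuretic peptide clearance receptor, with 1 UMI against 183 (14.7-fold, 2.60 to 583), MYCN (6.23-fold, 2.10 to 30.4), CFC1 with 3 UMIs (5.74-fold, 1.94 to 28.1) and PRTG, an immunoglobulin superfamily receptor (3.60-fold, 2.67 to 4.97).

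**Figure D4:**
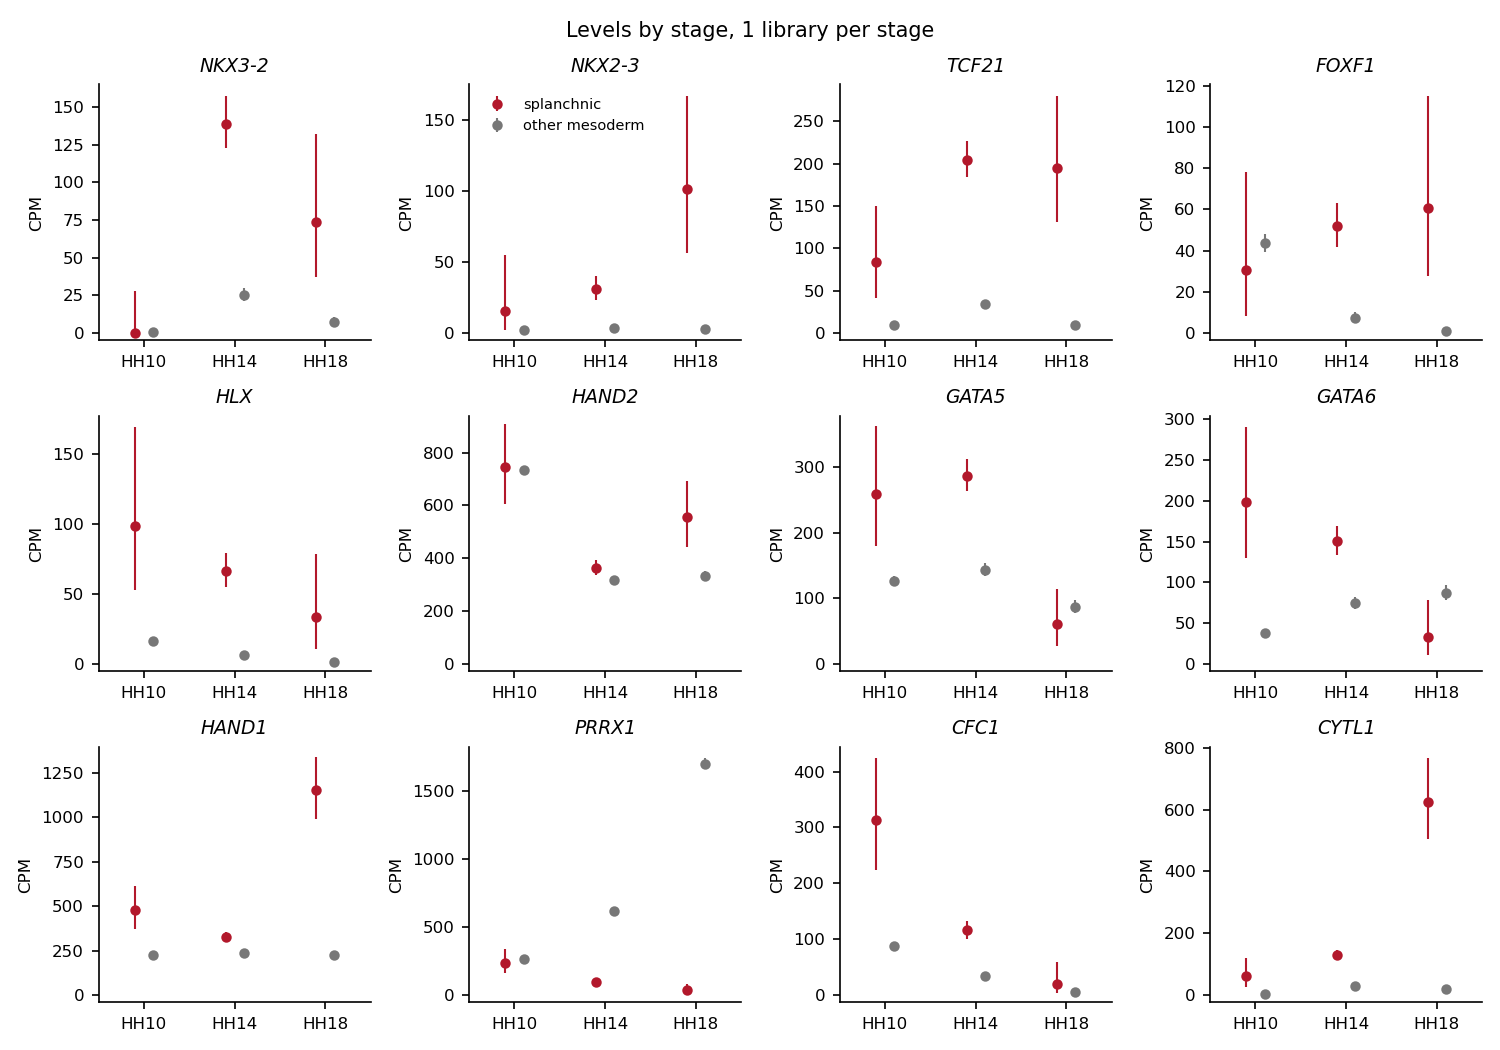
Levels in CPM of 12 genes at HH10, HH14 and HH18 in splanchnic cells in red and in other mesoderm in grey, with exact 95% Poisson intervals for counting error and 1 library per stage. In splanchnic cells NKX3-2 was at 0, 139 and 74.0 CPM, HAND2 at 747, 364 and 558 CPM, and GATA6 at 198, 150 and 33.6 CPM, while PRRX1 was at 265, 618 and 1701 CPM in other mesoderm.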

How the data were processed

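Dissociated cells of 3 stages were profiled with a 10x 3' v3.1 kit, 1 library each. Cell Ranger 4.0.0 and the GRCg6a chicken build are named in the submitters' processing notes. The authors deposited UMI counts per gene and cell, not normalized, for 16748 genes (12430 with a symbol), and a cell table with their cluster names, phases and the percent of mitochondrial UMIs per cell, both used as deposited. Summed counts per class were turned into CPM here, with exact Poisson intervals, and folds with exact conditional binomial intervals. Shares of cells have Clopper-Pearson intervals after thinning to 3000 UMIs (numpy 2.4.6, scipy 1.17.1, pandas 2.3.3). Scrublet was run in scanpy 1.11.5, and its calls were left out only as an alternative. Named genes were taken from the list members with the most extreme folds and, ranked by the interval bound nearest to 1, from the 15 highest and 10 lowest against other mesoderm at HH14, 8 each way against a class and 6 each way between stages, among genes with 100 or more UMIs and without ribosomal protein, mitochondrial, haemoglobin and W-linked genes. Further list members, and markers of other cell types, are named as examples. Some items are not reported here. Genes in the cell split and pairs were chosen after their values were seen. The members and lists were chosen with earlier results of these data known. Folds and intervals were checked on simulated Poisson sums. These follow the model of the intervals and leave out the clumping of UMIs in single cells, so the check says nothing about that.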

Additional observations from a re-analysis of the deposited data

Results flagged for a closer look

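GATA6, a zinc finger factor of heart and gut mesoderm, stood on opposite sides of other mesoderm at the later stages. Its log2 fold of splanchnic cells over other mesoderm was -1.375 at HH18, on 5 splanchnic UMIs (33.6 CPM against 87.2 CPM, 2.59-fold lower, 1.10 to 8.04), and 1.01 at HH14 (150 CPM against 74.5 CPM). The difference between the stages was not tested, since each stage is 1 library.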

How the results depend on the processing

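No paired analysis was possible because each stage was 1 library with 1 replicate number and no test was made, and no replicate could be left out. At HH14, 504 of 8251 measured genes were at least 2-fold apart against other mesoderm and 906 of 7297 against Somatopleure. The counts were 540 of 7285 against Extraembryonic LPM and 380 of 4099 against Gut. With cells thinned to 3000 UMIs, which leaves fewer genes measured, they were 302 of 5584, 503 of 4442, 249 of 3342 and 162 of 1854. A minimum of 30 expected UMIs gave 204 of 5791, 345 of 4564, 178 of 4604 and 107 of 1743. At a fold of 4 they were 151, 154, 93 and 58. A minimum of 5 expected UMIs gave 805 of 9469 against other mesoderm, 868 of 8523 against Extraembryonic LPM and 785 of 5903 against Gut. Cells annotated G1 gave 318 of 4654 against Extraembryonic LPM and 208 of 2267 against Gut. The main counts were 147 of 2082 at HH10 and 225 of 2429 at HH18. They were 86 of 2034 between HH14 and HH10 and 122 of 2281 between HH18 and HH14. Thinning gave 56 of 756, 84 of 888, 36 of 755 and 42 of 848 for these. A minimum of 5 gave 415 of 3549, 520 of 4061, 280 of 3555 and 342 of 3848. A minimum of 30 gave 25 of 697, 40 of 805, 10 of 695 and 17 of 780. A fold of 4 gave 27, 41, 9 and 16 of the main totals. Cells annotated G1 gave 39 of 654 at HH10 and 22 of 637 between HH14 and HH10.

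Which classes stand for other mesoderm decided the balance at HH14. Against the other lateral plate and limb classes alone 296 genes were higher and 218 lower, and against all other annotated cells 157 and 432, beside 192 and 312. With Amnion added to other mesoderm 146 were higher and 303 lower. Thinned to 4600 UMIs, the share of splanchnic cells with TCF21 was 46.25% and with FOXF1 17.5%, beside 32.2% and 10.1%.

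For single genes, log2 folds changed sign in 7 of 3209 values. NKX6-1 was at 1.92 against lateral plate and limb classes only and 2.37 without Intermediate MES. LMOD1 against other mesoderm was at 1.82 against lateral plate and limb classes only and 1.59 without Gut. KRT14 was at -0.50 against all other annotated cells, CLDN3 over Extraembryonic LPM at -0.11 by means over cells and ACTA2 at HH14 over HH10 at 1.77 in cells annotated G1. Where a group had 0 UMIs under an alternative and the bound from 3 UMIs fell on the other side of 1, no value was given. Where a changed sign is not set by the classes compared, the cause was not tested. The alternatives that leave out Gut or Intermediate MES or keep 1 first-level class were chosen after seeing the data. At HH10 and HH18 the 18 and 21 splanchnic cells limit what could be measured.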
